A study of Mus musculus with 6 samples.

Results

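Wnt ligands are secreted, lipid-modified glycoproteins that one cell releases and another reads through Frizzled receptors. In the beta-catenin branch, Frizzled and Lrp5 or Lrp6 stop the breakdown of beta-catenin, which then turns on genes together with TCF/LEF factors. Other ligands act through Ror receptors and the planar cell polarity branch on cell shape and movement. In the embryonic trunk, epithelium and mesenchyme make different ligands, and the balance of Wnt signalling sets which part of the foregut endoderm becomes pancreas, stomach or duodenum.

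To ask which of these ligands differ when *mir-302* is lost, 10 Wnt genes of the mouse were followed in cells of the *Pdx1* lineage, out of 55414 genes listed. The 10 are *Wnt2*, *Wnt2b*, *Wnt3*, *Wnt4*, *Wnt5a*, *Wnt5b*, *Wnt6*, *Wnt7a*, *Wnt7b* and *Wnt11*, chosen by name and found by Ensembl identifier. The other 9 Wnt genes of the mouse serve as comparison. Messenger RNA was sequenced from 3 WT and 3 KO libraries of cells sorted at E10.5. Both groups carried *Pdx1-Cre* and tdTomato. The first is a transgene that drives Cre recombinase from the *Pdx1* promoter, and the second is a red reporter switched on in *Rosa26* by Cre. KO cells lacked *mir-302* through a germline deletion, so the tissue around the sorted cells lacked it too. WT cells carried the cluster intact. Cells came from the whole trunk, and *Pdx1-Cre* marks descendants of *Pdx1*-expressing cells, including those of the duodenum and stomach. The labels do not say how many embryos entered a library or whether replicates were separate litters, so p-values measure only the spread between these libraries, which may be partly technical.

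Totals ran from 17352498 to 26634523 counts per library, and a count of 0 allowed up to 3 counts, or 0.112 to 0.171 CPM, the unit of levels used here (counts scaled to library size with TMM factors). This limit covers counting error only. Pancreatic progenitor markers, led by *Gata4*, summed to between 771 and 1010 CPM in every library, with none of the 9 at 0, so markers of the labelled cell type were present throughout. *Gata4* itself was at 173, 249 and 222 CPM in WT and at 342, 334 and 322 CPM in KO. It was the 1 of these 9 that DESeq2 called (adjusted p = 0.000919), higher in KO, against 4.22% of all genes. The sum thus also carries a difference between genotypes and does not measure progenitor content alone. Other cells were present to different degrees. Mesenchyme markers, led by *Col3a1*, summed to 531, 196 and 1157 CPM in WT and to 1361, 54.4 and 1115 CPM in KO. In KO replicate 2, 6 of these 12 (*Col1a1*, *Col3a1*, *Twist1*, *Prrx1*, *Lum* and *Barx1*) were at 0 and 10 were at their lowest. Endothelium markers, led by *Flt1*, summed to 1.71 CPM there and to between 19.5 and 40.9 CPM in the other 5 libraries. Blood markers, led by *Hbb-y*, summed to 2.12, 3.18 and 15954 CPM in WT and to 6391, 0.969 and 337 CPM in KO, with WT replicate 3 and KO replicate 1 far above the rest. Liver markers, led by *Afp*, summed to between 545 and 1894 CPM and neural markers, led by *Pax6*, to between 54.5 and 143 CPM, with *Sox1* and *Olig2* at 0 throughout. Somite markers, led by *Meox1*, reached at most 14 CPM. KO replicate 2 therefore stood apart in its summed mesenchyme, mesothelium and endothelium markers, but not in each member. Of the mesothelium markers 3 of 4 were at their lowest there, and of the endothelium markers 4 of 6. *Msln* of the mesothelium list was at its highest there, at 12.8 CPM. *Pecam1* of the endothelium list, at 1.42 CPM, lay within the range of the other 5 libraries. The rows of the deleted microRNAs were at 0 in all libraries except for 2 counts of *Mir302d* in KO replicate 3, so the deposited counts do not check the genotype.

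The microRNAs that KO cells lack pair with messages mainly through their seed, bases 2 to 8, shown in capitals in the mature sequences below (RefSeq, GRCm38.p6, chr3, plus strand, for example chr3:127545275-127545297 for miR-302b-3p). They are shown because they define which ligands carry a matching site. miR-302b-3p and miR-302d-3p share one seed, and miR-302c-3p is listed with a start one base later.
miR-302b-3p: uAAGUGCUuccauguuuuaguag
miR-302d-3p: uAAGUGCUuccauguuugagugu
miR-302c-3p: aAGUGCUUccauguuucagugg

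Matches to the seed of miR-302b-3p were searched on the sense strand of the 3′UTRs. Of the 10 ligands, *Wnt7a* and *Wnt7b* held 1 match each and the other 8 held none. Across 13837 tested genes with a 3′UTR, 20.5% held at least 1, so 2 of 10 ligands matched the background. The sites are printed 5′ to 3′ as in the message, with T for U and the match in capitals. The *Wnt7b* site, at GRCm38 chr15:85535468-85535475 on the minus strand, covers bases 1917 to 1924 of a 3′UTR of 1955 bases. It pairs with the whole seed and ends in the A that favours silencing. The *Wnt7a* site, at chr6:91364258-91364264 on the minus strand, covers bases 1588 to 1594 of 1871 and lacks that A. A match is a description of letters and not a shown site of action.
Wnt7b site: ctcctctggaggggAGCACTTAgcccca
Wnt7a site: gagctgtatgcctgAGCACTTgtggtc

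*Wnt7b* (ENSMUSG00000022382.16), an epithelial ligand of the developing lung and pancreas, had the highest mean CPM over the 6 libraries, and it was higher in every KO library than in any WT library. It was at 35.9, 36 and 18.7 CPM in WT replicates 1, 2 and 3 and at 40.3, 63.9 and 41.8 CPM in the 3 KO libraries in the same order. The highest value was in KO replicate 2, the library with the fewest mesenchyme and endothelium counts. The WT mean was 30.2 ± 9.93 CPM and the KO mean 48.7 ± 13.2 CPM (SD over 3 libraries each). The log2 fold change was 0.69 with a standard error of 0.29 and a 95% interval from -0.0027 to 1.38 (edgeR, adjusted p = 0.482). The difference did not pass the test. The two-sided exact permutation test of mean log2 CPM gave p = 0.1, the smallest that 3 libraries against 3 allow. Leaving out one library at a time kept the fold change between 0.46, without KO replicate 2, and 0.85.

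*Wnt7a*, the close relative of *Wnt7b* known for patterning the dorsal limb and the reproductive tract, showed the same separation at levels near the counting limit. It had 0, 7 and 8 counts in WT (0, 0.391 and 0.388 CPM) and 26, 11 and 21 counts in KO (0.969, 0.627 and 1.14 CPM). All KO libraries lay above all WT libraries, and the gene passed the filter on low counts through KO libraries alone. The log2 fold change was 1.81 with a standard error of 0.86 (edgeR, adjusted p = 0.54; two-sided exact permutation test, p = 0.1). *Wnt7a* and *Wnt7b* were thus the 2 of 10 ligands whose genotypes did not overlap. Both lay above WT, and none of the 10 lay wholly below. Among all 16353 genes tested, 8.36% lay wholly above WT in KO and 7.99% wholly below. The 10 include 3 ligands that did not pass the filter, so the bases differ. The 2 ligands without overlap are also those with a seed match, a coincidence noted after the values were seen and not tested.

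**Figure D1:**
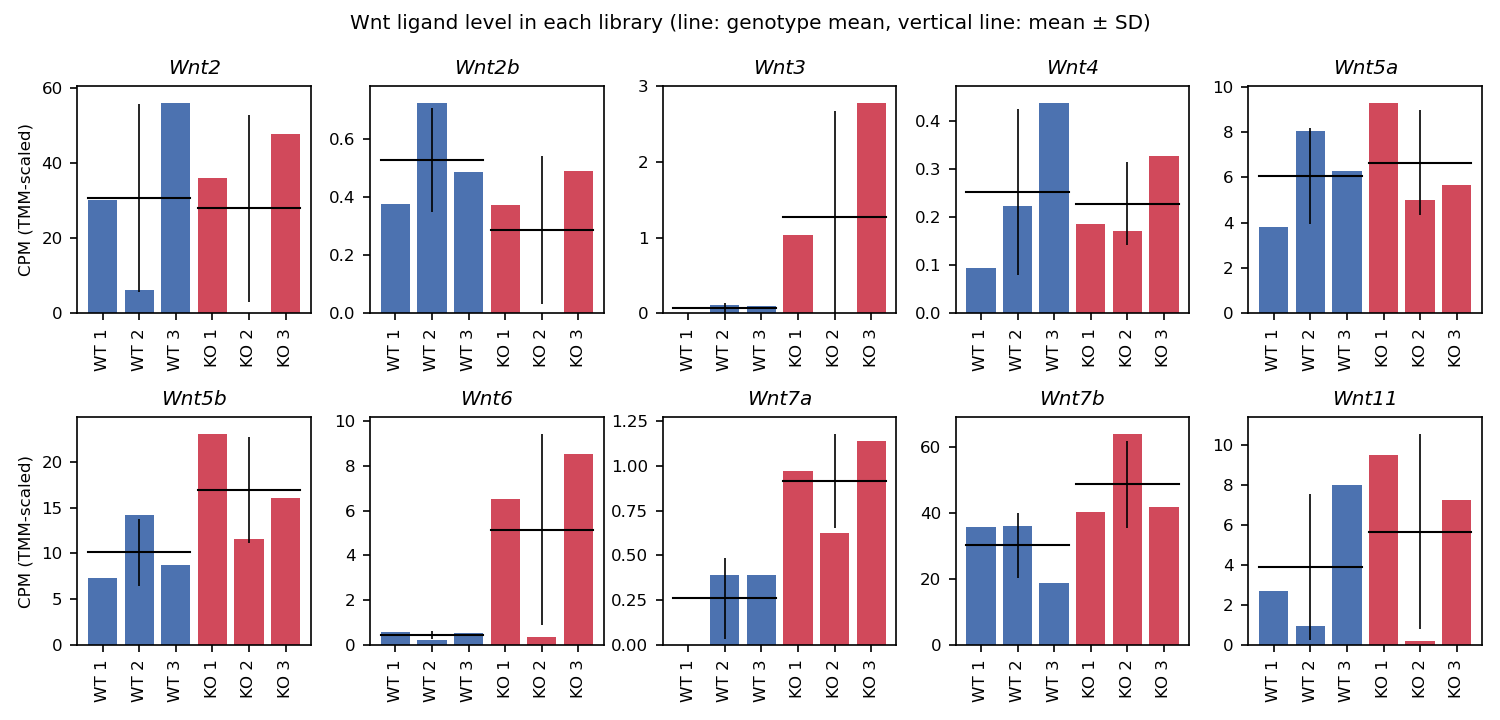
CPM (TMM-scaled) of each ligand in the 3 WT libraries (blue) and 3 KO libraries (red), each panel with its own axis from 0. Horizontal lines mark genotype means and vertical lines the mean ± SD, drawn down to 0 at most. *Wnt7a* and *Wnt7b* are the panels in which every red bar stands above every blue one, and *Wnt6* and *Wnt3* are high in KO 1 and KO 3 but not in KO 2.

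*Wnt6* (ENSMUSG00000033227.8), a ligand of surface ectoderm and other epithelia, had the largest fitted difference of the tested ligands, carried by 2 of the 3 KO libraries. Counts were 12, 4 and 11 in WT (0.566, 0.223 and 0.534 CPM) and 175, 6 and 157 in KO (6.52, 0.342 and 8.54 CPM). KO replicates 1 and 3 were thus far above WT, and KO replicate 2 lay within the WT range. The WT mean was 0.441 ± 0.189 CPM and the KO mean 5.14 ± 4.27 CPM (SD over 3 libraries each). The log2 fold change was 3.51 with a standard error of 1.02 and a 95% interval from 1.12 to 5.91, and the gene was not called by edgeR after adjustment over all genes (adjusted p = 0.238). Exact permutation over libraries gave p = 0.3, two-sided.

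DESeq2, the tool used in the study, called *Wnt6* with a log2 fold change of 3.56 (adjusted p = 0.00168), the 1 ligand it called among the 10. Of all genes to which DESeq2 gave an adjusted p, it called 4.87%, and 4.22% as higher in KO. The call of *Wnt6* was lost without KO replicate 1 (DESeq2, log2 fold change 3.34, adjusted p = 0.0958, with 1.63% of all genes called higher) or KO replicate 3 (log2 fold change 2.99, adjusted p = 0.0996, with 3.96%). Without KO replicate 2 the fold change was 4.07 by edgeR (adjusted p = 0.136) and 4.09 by DESeq2 (adjusted p = 6.95e-12, with 3.49% of all genes called higher). Without WT replicate 1, DESeq2 called *Wnt6* beside 2.53% of all genes higher, and without WT replicate 3 beside 2.45%. The study picked *Wnt6* from these same libraries, so the call is not independent evidence. Surface ectoderm markers, led by *Trp63*, summed to 6.13, 6.37 and 9.08 CPM in WT and to 5.29, 7.12 and 28.2 CPM in KO. Most of this sum was *Trp63* in every library but KO replicate 2, where *Trp63* was at 3.36 CPM. The sum was highest in KO replicate 3 but lowest in KO replicate 1, where *Wnt6* was also high. *Krt15* was at 0.66, 0.447 and 1.8 CPM in WT and at 1.94, 3.76 and 6.58 CPM in KO, wholly above WT, and DESeq2 called it (adjusted p = 0.0276). *Krt5* had 0, 1 and 0 counts in WT and 6, 0 and 12 counts in KO. It was thus above 3 counts, though with few counts, only in the 2 libraries in which *Wnt6* was high. *Krt14* did not follow *Wnt6*. It had 0, 0 and 8 counts in WT and 0, 0 and 23 counts in KO, and so none in KO replicate 1. Gut endoderm markers, led by *Ihh*, summed to 84.2, 140 and 66.5 CPM in WT and to 175, 115 and 208 CPM in KO, but their members differed. *Sox17* was at 0.342 CPM in KO replicate 2 against at least 18.1 CPM in the other 5 libraries. *Ihh*, *Sox2*, *Shh* and *Cdx1* lay above all WT libraries in every KO library, KO replicate 2 included, unlike *Wnt6*. *Cdx2* was at 4.15, 11.2 and 5.05 CPM in WT and at 5.67, 3.87 and 1.8 CPM in KO. Its fitted level was thus lower in KO, with overlapping genotypes (edgeR, log2 fold change -0.84, adjusted p = 0.669). DESeq2 called *Sox2*, *Shh* and *Ihh* of the 5 tested gut endoderm markers higher, and edgeR none. Mesenchyme markers were high in KO replicates 1 and 3 too, but also in WT replicate 3 (1157 CPM), where *Wnt6* was at 0.534 CPM. The part of other cells in the level of *Wnt6* was not tested.

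*Wnt3*, the ligand needed to form the primitive streak, followed the same libraries. It had 0, 2 and 2 counts in WT and 28, 0 and 51 counts in KO, or 0, 0.112 and 0.0971 CPM against 1.04, 0 and 2.78 CPM. Only KO replicates 1 and 3 rose above the limit that 3 counts set, so the gene did not pass the filter on low counts. Fitted without that filter, its log2 fold change was 4.12 with a standard error of 1.30 (edgeR, adjusted p = 0.292). DESeq2 gave it no adjusted p with all libraries. It called *Wnt3* without KO replicate 2 (log2 fold change 4.82, adjusted p = 0.00233, with 3.49% of all genes called higher). That fit leaves out the KO library in which *Wnt3* had 0 counts, so the call rests on this choice. Because *Wnt3* and *Wnt6* were high in the same 2 libraries, their promoters are printed, from 250 bases before to 50 after the start. Capitals mark the GC box, GGGCGG on either strand. The *Wnt6* promoter lies at GRCm38.p6 chr1:74771642-74771941, plus strand, and the *Wnt3* promoter at chr11:103773925-103774224, plus strand.
Wnt6 promoter: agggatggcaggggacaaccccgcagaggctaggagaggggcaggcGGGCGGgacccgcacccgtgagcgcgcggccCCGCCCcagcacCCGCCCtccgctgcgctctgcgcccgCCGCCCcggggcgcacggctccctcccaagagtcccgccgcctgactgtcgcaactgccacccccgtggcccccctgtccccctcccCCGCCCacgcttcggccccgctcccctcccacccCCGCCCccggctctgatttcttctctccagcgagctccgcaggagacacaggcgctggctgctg
Wnt3 promoter: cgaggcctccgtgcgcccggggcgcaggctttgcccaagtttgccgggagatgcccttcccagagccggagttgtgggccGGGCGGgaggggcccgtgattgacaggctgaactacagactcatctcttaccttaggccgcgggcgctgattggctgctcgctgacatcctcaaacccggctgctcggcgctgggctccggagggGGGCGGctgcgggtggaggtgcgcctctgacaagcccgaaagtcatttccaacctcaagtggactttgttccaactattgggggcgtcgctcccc

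The *Wnt6* window was 76.7% GC with 6 GC boxes, and the *Wnt3* window was 65.7% GC with 2, against a median of 52.7% GC over 32851 mouse promoters. A GC box was present in 35.7% of these and in at least one listed promoter of each of the 8 ligands in the RefSeq table. CTTTG, the core that TCF/LEF factors bind, was searched on both strands. It occurred 2 times in the *Wnt3* window and 0 times in that of *Wnt6*, and in 53.9% of all promoters. Both windows were richer in GC than the median promoter, and those of the other ligands ranged from 53.0% to 84.3%. No promoter was listed for *Wnt5a* and *Wnt7b*.

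The tracks of *Wnt2* and *Wnt11* differed more between libraries than between genotypes. *Wnt2*, a mesenchymal ligand that with *Wnt2b* specifies the lung from the foregut, was at 30.1, 6.09 and 56 CPM in WT and at 35.9, 0 and 47.8 CPM in KO. It was lowest in WT replicate 2 among WT libraries and had no count in KO replicate 2, the same libraries in which mesenchyme markers were lowest. Means were 30.7 ± 25 and 27.9 ± 24.9 CPM (SD, n = 3 each), with a log2 fold change of -0.14 and a 95% interval from -3.26 to 2.98 (edgeR, adjusted p = 0.987). Without KO replicate 2 the KO mean was 41.8 CPM and the fold change 0.45, so the direction rested on that library, and it also turned to 0.66 without WT replicate 3.

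*Wnt11*, a ligand of the ureteric bud and of beta-catenin independent signalling, was at 2.69, 0.95 and 7.96 CPM in WT and at 9.5, 0.171 and 7.24 CPM in KO. Its 6 libraries stood in the same order as for the summed mesenchyme markers, from KO replicate 2 and WT replicate 2 up to KO replicate 1. Mesothelium markers, led by *Upk3b*, summed to 57.4, 40.1 and 141 CPM in WT and to 100, 14.2 and 70.9 CPM in KO. In KO replicate 2, *Wt1* was at 0, while *Msln* was at its highest, 12.8 CPM. For *Wnt11* itself the fit showed no clear difference. Its log2 fold change was 0.55 with a 95% interval from -2.08 to 3.18 (edgeR, adjusted p = 0.935). It was -0.07 without KO replicate 1, 1.13 without KO replicate 2 and 1.67 without WT replicate 3. Nephric duct markers, led by *Ret*, summed to 6.32 to 24.3 CPM with *Pax2* at 0 throughout. In bulk libraries fewer cells of a type and less RNA per cell cannot be told apart, and the part of these cells in the ligand levels was not tested.

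**Figure D2:**
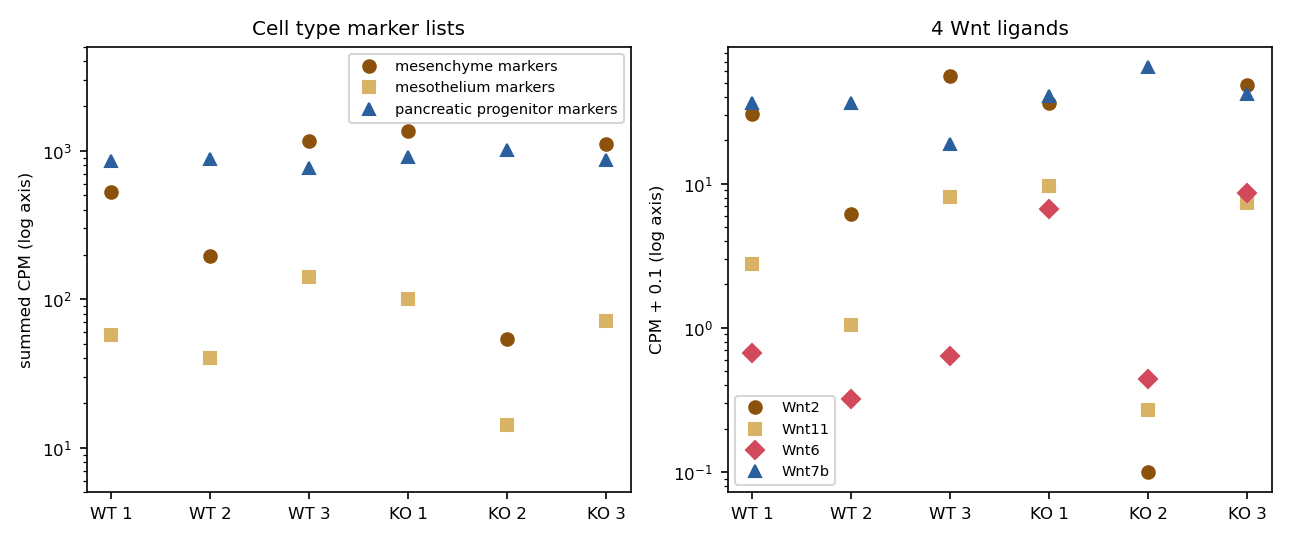
Left, summed CPM of 3 marker lists in each library on a log axis, and right, CPM of 4 ligands (plus 0.1, so that 0 can be drawn) on a log axis, with one point per library. *Wnt2* and *Wnt11* drop with the mesenchyme and mesothelium markers in KO 2, while *Wnt7b* is at its highest there, 63.9 CPM. The pancreatic progenitor sum, 1010 CPM in KO 2, is led by *Gata4*, which was higher in every KO library than in any WT library.

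*Wnt5b* and *Wnt5a* are paralogs that often act through Ror receptors. *Wnt5b* was at 7.35, 14.2 and 8.69 CPM in WT and at 23, 11.6 and 16 CPM in KO, so that KO replicate 2 lay below WT replicate 2 and the genotypes overlapped. Its means were 10.1 ± 3.65 and 16.9 ± 5.78 CPM (SD, n = 3 each), and the log2 fold change was 0.74 with a standard error of 0.33 (edgeR, adjusted p = 0.502; 95% interval -0.04 to 1.53). DESeq2 gave an adjusted p of 0.248 with all libraries and 0.0332 without WT replicate 2, where it called 4.59% of all genes higher. *Wnt5a* was at 3.82, 8.04 and 6.26 CPM in WT and at 9.28, 5.01 and 5.66 CPM in KO. Its log2 fold change of 0.14 had a 95% interval from -0.68 to 0.97 (edgeR, adjusted p = 0.947), and it turned to -0.10 without WT replicate 1 and to -0.17 without KO replicate 1. Neither paralog was called by edgeR. With any one library left out, the edgeR fold change of *Wnt5b* was between 0.46 and 1.1.

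*Wnt2b* and *Wnt4*, which has roles in kidney and gonad, stayed under 1 CPM everywhere and did not pass the filter. *Wnt2b* had 8, 13 and 10 counts in WT and 10, 0 and 9 counts in KO (log2 fold change -0.83 without the filter; edgeR, adjusted p = 0.791). Its lone zero was in KO replicate 2, where *Wnt2* was also at 0. *Wnt4* had 2, 4 and 9 counts in WT and 5, 3 and 6 counts in KO. The genotypes overlapped in both.

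Of the 10 ligands, 7 passed the filter on low counts and were tested, and *Wnt2b*, *Wnt3* and *Wnt4* were not. By edgeR, none of the 7 was called at an adjusted p under 0.05 (percent called among all genes tested, 0), and 1, *Wnt6*, had an unadjusted p under 0.05 with a higher level in KO, which 6.42% of all genes had. None had one with a lower level, which 3.97% of all genes had. The fitted difference was higher in KO for 6 of 7, all but *Wnt2*, against 45.6% of all genes tested. The median log2 fold change of the 7 was 0.69 and that of all genes -0.02. These are descriptions, since a ligand such as *Wnt7a* entered the test through its KO libraries alone. Of the 10, 8 were higher in KO replicate 1 than in WT replicate 2, a pair of libraries that share a code number of unstated meaning in the labels, and *Wnt2b* and *Wnt4* were lower. Of all genes tested, 47% were higher in that pair. Its mesenchyme markers, with which *Wnt2* and *Wnt11* ran, were at 1361 against 196 CPM.

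**Figure D3:**
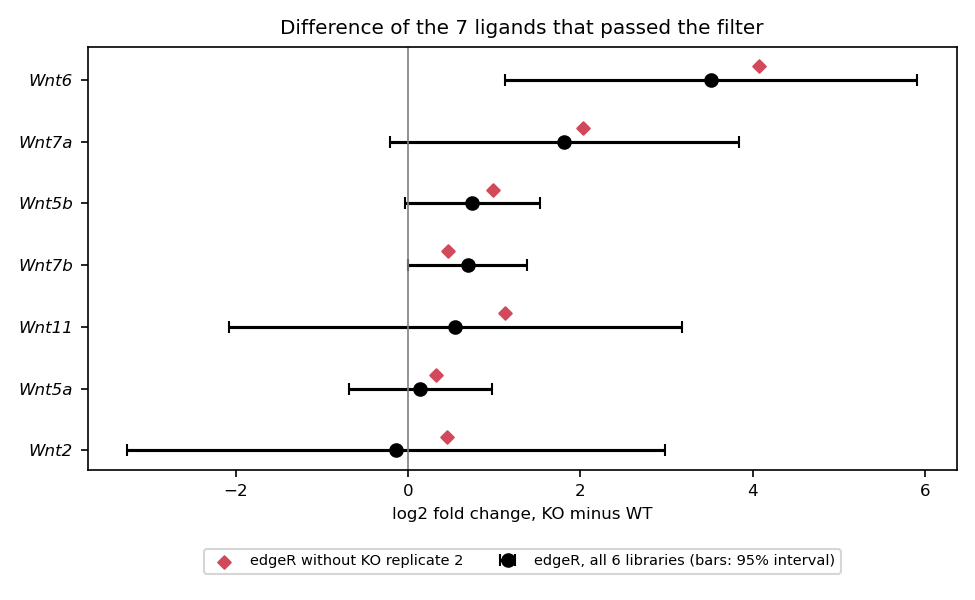
Log2 fold change, KO minus WT, of the 7 tested ligands by edgeR with 95% intervals (black), and the same without KO replicate 2 (red diamonds, no interval drawn). Only the interval of *Wnt6*, 1.12 to 5.91, lies wholly on one side of 0, before adjustment over genes, and *Wnt2* changes sign without KO replicate 2.

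Fold changes moved with GC content across genes. Genes with at least 75% GC in their most GC-rich 200 bases were higher in KO in 67.1% of cases, with a median log2 fold change of 0.14, against 41% and -0.04 for genes below that. Of the tested ligands, 4 of 7 belonged to the GC-rich class (*Wnt5a*, *Wnt5b*, *Wnt6* and *Wnt7a*), against 22.9% of all tested genes with a value. With offsets for this trend the edgeR log2 fold change of *Wnt5b* fell to 0.44, that of *Wnt6* was 3.21, that of *Wnt7a* 1.74 and that of *Wnt7b* 0.72. The change was thus small for *Wnt7b*, at 71% in its richest stretch, and larger for *Wnt6*, at 81%, and *Wnt5b*, at 81.5%. DESeq2 with the same offsets still called *Wnt6* (log2 fold change 3.23, adjusted p = 0.00783, with 2.82% of all genes called higher).

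To compare ligands with each other, CPM was divided by the joined length of all annotated exons of the gene, in kilobases. This length can exceed that of the message in the cells, which would lower the level per kilobase. In WT the order of mean levels per kilobase was *Wnt2* (13.6 ± 11.1), *Wnt7b* (6.17 ± 2.03), *Wnt5b* (3.8 ± 1.38), *Wnt11* (0.935 ± 0.883), *Wnt5a* (0.772 ± 0.271) and *Wnt6* (0.201 ± 0.0863), each in CPM per kilobase with its SD over 3 libraries. *Wnt2b*, *Wnt7a*, *Wnt4* and *Wnt3* followed, at 0.126, 0.0819, 0.06 and 0.0226 CPM per kilobase. Among neighbours in this order, only *Wnt5b* over *Wnt11* and *Wnt5a* over *Wnt6* did not overlap between libraries. In KO the first 3 kept their places, with *Wnt2* at 12.4 ± 11, *Wnt7b* at 9.94 ± 2.7 and *Wnt5b* at 6.35 ± 2.18 CPM per kilobase. *Wnt6* stood next at 2.34 ± 1.95, ahead of *Wnt11* at 1.36 ± 1.18 and *Wnt5a* at 0.85 ± 0.294 CPM per kilobase. The KO neighbours without overlap were *Wnt5b* over *Wnt6* and *Wnt7a* over *Wnt2b*.

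Summed over all 19 Wnt genes, ligand messages came to 27.4, 19.2 and 38.2 CPM per kilobase in WT and to 42.1, 20.7 and 46.8 CPM per kilobase in KO. The genotypes overlapped in this sum, since KO replicate 2 lay near the lowest WT library. *Wnt2* made up 48.8%, 14.1% and 64.9% of the sum in WT and 37.7%, 0% and 45.3% in KO. *Wnt7b* made up 26.8%, 38.3% and 10% in WT and 19.5%, 63.1% and 18.2% in KO. Shares of one sum are tied, so a fall in one large part raises the others. Between WT replicates 1 and 2, *Wnt7b* itself hardly differed (35.9 and 36 CPM), while *Wnt2* was at 30.1 and 6.09 CPM. The opposite course of the 2 shares is therefore not a separate result. WT replicate 2 and KO replicate 2 were therefore the libraries in which *Wnt7b* led over *Wnt2*. *Wnt5b* supplied between 8.57% and 28% in WT and between 12.9% and 21.1% in KO. *Wnt6* supplied at most 0.943% in WT, and 7.06%, 0.754% and 8.33% in KO replicates 1, 2 and 3. The other 9 Wnt genes together held 4.95% to 10.6% of the sum in any library.

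**Figure D4:**
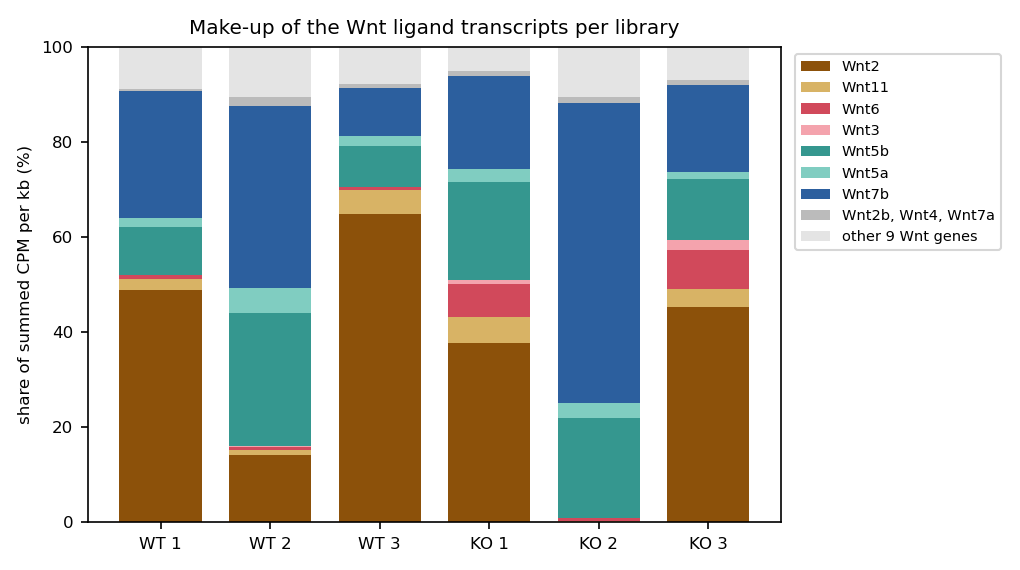
Share of each ligand in the summed CPM per kilobase of 19 Wnt genes, in percent, one bar per library. *Wnt2* (brown) has the largest share in some libraries and *Wnt7b* (blue) in others of the same genotype. Shares of one sum are tied, so a fall in one raises the others. *Wnt6* (red) is visible in KO 1 and KO 3 at 7.06% and 8.33%.

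As a description over the 6 libraries, the tested genes whose log2 CPM ran most like that of *Wnt6* were *Pcdh7* (Pearson's r = 0.989), *Bysl* (r = 0.985) and *Rpa1* (r = 0.984), and 93 genes exceeded 0.9. *Pcdh7*, a protocadherin, was at 5.42, 4.58 and 6.75 CPM in WT and at 15.1, 5.58 and 15.9 CPM in KO, with KO replicate 2 within the WT range as for *Wnt6*. For *Wnt7b* they were *Rbmx2* (r = 0.994), *Pitpnm1* (r = 0.986) and *Gper1* (r = 0.985), and 150 genes exceeded 0.9. *Gper1*, a membrane estrogen receptor, was at 2.73, 2.18 and 1.02 CPM in WT and at 2.91, 4.84 and 2.67 CPM in KO. With 6 libraries that differ in genotype and cell content, many genes reach such values.

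Of the other 9 Wnt genes, 3 were tested (*Wnt9a*, *Wnt9b* and *Wnt16*) and neither edgeR nor DESeq2 called any, while *Wnt1* and *Wnt8a* had no count in any library. *Wnt16* was named after its values were seen, as the Wnt gene with every KO library below every WT library. It was at 5.99, 5.36 and 5.29 CPM in WT and at 3.65, 2.45 and 5.22 CPM in KO, a log2 fold change of -0.55 (edgeR, adjusted p = 0.611). Among all genes tested, 7.99% lay wholly below WT in KO. Its direction was thus opposite to that of *Wnt7a* and *Wnt7b*, and it did not pass the test.

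Cells that release Wnt ligands need *Porcn*, which attaches their lipid, and *Wls*, which carries them to the surface. *Porcn* averaged 51.3 ± 3.57 CPM over the WT libraries and 59.7 ± 8.3 CPM over the KO libraries (SD, 3 each; edgeR, adjusted p = 0.648). *Wls* averaged 118 ± 17 and 134 ± 46.3 CPM (edgeR, adjusted p = 0.894), and was lowest in KO replicate 2, at 81.6 CPM. Over the 7 secretion genes the median log2 fold change was 0.00096, and neither tool called any. The machinery that exports the ligands thus showed no difference that passed the test.

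On the receiving side, edgeR called none of 15 tested receptors and co-receptors, 13 of which had higher fitted levels in KO, against 45.6% of all genes, with a median log2 fold change of 0.39 (0.61 without KO replicate 3). DESeq2 called 4 of the 14 it adjusted, all higher, against 4.22% of all genes. *Fzd7* was at 18, 37 and 25.8 CPM in WT and at 81.1, 60.7 and 75.2 CPM in KO, a log2 fold change of 1.43 (edgeR, adjusted p = 0.132; DESeq2, adjusted p = 2.06e-06). *Fzd2*, *Lrp6* and *Ror1*, a receptor for *Wnt5a*, had edgeR log2 fold changes of 0.73, 0.73 and 1.23. In all 4 the KO libraries lay above WT, KO replicate 2 included, unlike in *Wnt6* and *Wnt3*. The R-spondin and turnover genes had a median of 0.64 over 9 tested (0.99 without KO replicate 2), and neither tool called any.

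Among extracellular inhibitors, which bind ligands or their receptors, fitted levels were higher in KO for 8 of 13 tested, against 45.6% of all genes. Their median log2 fold change was 0.40 (0.60 without KO replicate 2, 0.22 without KO replicate 1 and 0.19 without KO replicate 3). Of the 10 it adjusted, DESeq2 called *Sfrp1*, *Dkk3* and *Kremen1* higher, against 4.22% of all genes. Their edgeR log2 fold changes were 1.38, 0.46 and 0.87, and edgeR called none. *Notum*, an enzyme that removes the lipid of Wnt ligands, was named after its values were seen. It had 1, 3 and 3 counts in WT and 26, 22 and 15 counts in KO, with a log2 fold change of 3.03 (edgeR, adjusted p = 0.132). Like *Wnt7a*, it passed the filter on low counts through its KO libraries alone. *Sfrp1*, which binds Wnt ligands outside the cell, was at 15, 18.5 and 18.4 CPM in WT and at 57.4, 18.7 and 59.1 CPM in KO. As with *Wnt6*, its rise was in KO replicates 1 and 3, with KO replicate 2 at the upper edge of WT. The beta-catenin branch had 23 genes tested with a median of 0.04 (0.15 without WT replicate 2). Of the 23, DESeq2 called *Gsk3a*, *Tcf7l1* and *Tle1* higher, against 4.22% of all genes. The first is a kinase that breaks down beta-catenin and the others are repressors of its target genes. The planar cell polarity branch had a median of -0.29 over 13 genes, 10 of them lower in KO by the fit against 54.4% of all genes. That median was -0.15 without WT replicate 3, -0.14 without KO replicate 1 and -0.18 without KO replicate 3, and DESeq2 called 1, *Rac1*, higher.

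Target genes of the beta-catenin branch, which many cells raise when ligands reach them, gave no call by either tool. *Axin2*, the common readout, averaged 1.72 ± 0.627 CPM over WT libraries and 1.46 ± 0.228 CPM over KO libraries (SD, 3 each), and its log2 fold change was -0.24 (edgeR, adjusted p = 0.916). *Sp5*, named after its values were seen, was at 0.33, 0.279 and 0.243 CPM in WT and at 1.19, 0.855 and 0.653 CPM in KO. All KO libraries lay above WT, with a log2 fold change of 1.65 (edgeR, adjusted p = 0.217), but the gene passed the filter through KO libraries alone. *Ccnd1*, named likewise, went the other way, with a log2 fold change of -0.57 (edgeR, adjusted p = 0.38). Fitted levels were higher in KO for 5 of the 7 target genes, against 45.6% of all genes. Their median of 0.27 became 0.75 without KO replicate 2 and 0.15 without WT replicate 2. Over these 7 lists of other pathway genes together, 87 of 92 genes were tested and the median was 0.19. Of the 80 with an adjusted p from DESeq2, it called 11 higher and none lower, against 4.22% and 0.648% of all genes. By edgeR none was called, and 19 of 87 were higher and 5 lower at an unadjusted p under 0.05, against 6.42% and 3.97% of all genes. The edgeR counts include *Sp5*, *Notum* and *Fzd9*, which passed the filter through KO libraries alone. *Fzd9* had 3, 4 and 5 counts in WT and 55, 12 and 15 counts in KO. Since the study picked the Wnt pathway on these libraries, the counts are not independent evidence of a direction.

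**Figure D5:**
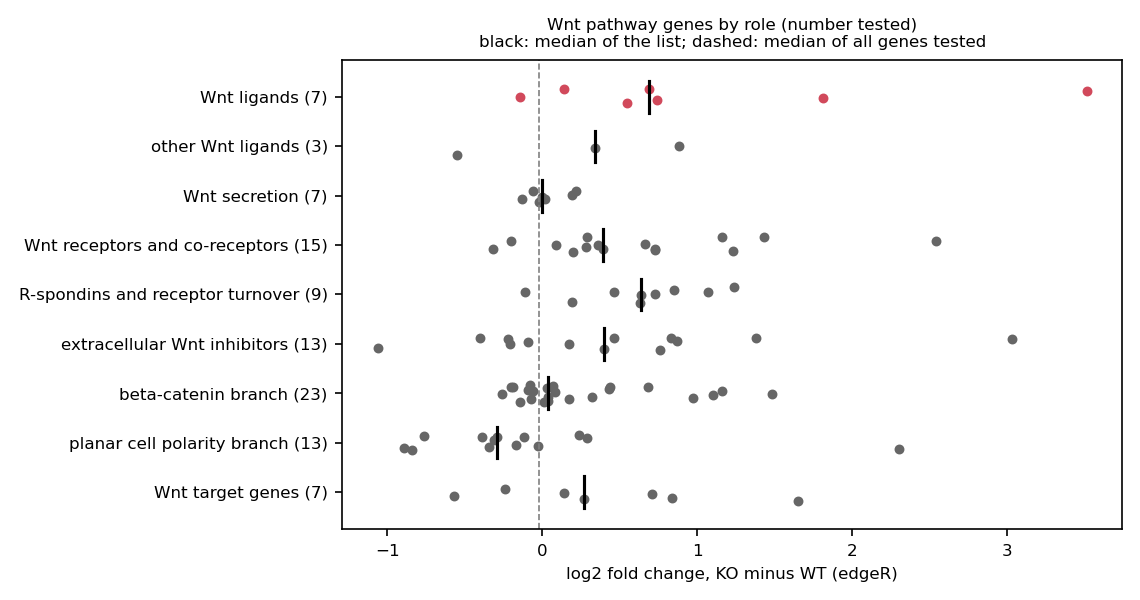
Log2 fold change, KO minus WT, by edgeR for each tested gene of the 10 ligands (red) and of 8 lists of other pathway genes (grey), with the number tested in brackets. Black bars mark list medians, from 0.69 for the ligands to -0.29 for planar cell polarity genes, and the dashed line marks the median of all genes tested, -0.02.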

How the data were processed

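Per the labels and the study's methods, sorted cells were lysed in Trizol LS, cDNA was made with SMART-seq v4 and libraries with Nextera XT. The authors removed low-quality bases, aligned reads to GRCm39 with STAR, counted them per gene with GenomicAlignments and deposited raw counts. Annotation, strand handling and versions are not given in the sources used here, so reads of overlapping genes on opposite strands could not be separated.

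From the deposited counts, edgeR 4.0.16 (R 4.3.3; filterByExpr, TMM, glmQLFit and glmQLFTest at their defaults, genotype only) tested 16353 genes, with Benjamini-Hochberg adjustment over all of them. DESeq2 1.42.0 was the alternative. A symbol was found for 94.0% of genes. For both tools, a simulated table in which 200 genes had known fold changes was used as a test of the code. All its genes had the same spread, and the changed genes were well counted. It therefore does not show how either tool treats ligands with few counts or a wide spread. CPM used TMM factors. Lengths and 3′UTRs came from GENCODE M21 (GRCm38), and microRNA and promoter sequences from RefSeq.

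Replicates differed by more than sampling noise (chi-square per degree of freedom 27.7 to 45.7). All 10 ligands were named, as were pathway genes that a tool called, *Porcn*, *Wls*, *Axin2* and the 3 genes most like *Wnt6* and the highest ligand. The members and lists were chosen with earlier results of these data known. Small RNA data of the study were not used here.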

Additional observations from a re-analysis of the deposited data

How the results depend on the processing

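Against no gene and no ligand called by edgeR (all 6 libraries, 1700 genes at an unadjusted p under 0.05), DESeq2 called 699 genes and 1 ligand (*Wnt6*). edgeR without the filter on low counts called 264 genes and no ligand. Leaving out one library, edgeR called 0 to 217 genes, the 217 without WT replicate 2, and no ligand. DESeq2 then called 450, 795 and 408 genes without WT replicates 1, 2 and 3 and 296, 719 and 862 without KO replicates 1, 2 and 3, and 0 to 2 ligands: *Wnt5b* and *Wnt6* without WT replicate 2, *Wnt3* and *Wnt6* without KO replicate 2, *Wnt6* without WT replicate 1 or 3, and none without KO replicate 1 or 3. With offsets for GC-rich stretches, DESeq2 called 535 genes and 1 ligand (*Wnt6*), and edgeR 0 genes. RLE factors and the newer estimate of the spread gave 0 genes. These offsets, the newer estimate and DESeq2 with libraries left out were added after seeing the data, and the estimate of the spread planned as an alternative proved to be the default.

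Directions turned when one library was left out for *Wnt2* (0.66 without WT replicate 3 and 0.45 without KO replicate 2 by edgeR, 0.66 and 0.46 by DESeq2), *Wnt5a* (-0.10 without WT replicate 1 and -0.17 without KO replicate 1 by edgeR, -0.08 and -0.17 by DESeq2) and *Wnt11* (-0.07 by edgeR and -0.05 by DESeq2, without KO replicate 1). By edgeR the ranges were -0.73 to 0.66 for *Wnt2*, -0.17 to 0.43 for *Wnt5a* and -0.07 to 1.67 for *Wnt11*. These fits have fewer samples, and the cause was not tested. Of 133 alternative values for the 7 tested ligands, 116 kept direction and call, 7 gained a call and 10 turned. Of 108 alternative list medians, 9 moved by more than the spread between replicates, among them those of the target genes, the planar cell polarity branch, the receptors and the other Wnt genes (0.34, and 0.75 without WT replicate 3).

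Replicate numbers did not pair the libraries: the correlations of deviations from the genotype means were -0.211, 0.251 and 0.0779 for replicates 1, 2 and 3, and of the 3 numbers only replicate 2 matched best with its own. With the replicate block, edgeR called 0 genes and 0 ligands, with 1693 genes at an unadjusted p under 0.05. The depth limits *Wnt2b*, *Wnt3*, *Wnt4* and *Wnt7a*.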
